A study of Solanum lycopersicum with 2 samples.

Results

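A group of 72 tomato genes was read at least 100 times in an anther library and had no entry at all in a young leaf library. The members were chosen by these measured counts: an anther read number of at least 100 and the absence of the identifier from the leaf file. They were 72 of 9982 genes with at least 100 anther reads, or 0.721%, and 72 of 25923 genes listed in either library. The rule itself sets the difference between the tissues, so that difference is described below and not tested.

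Both libraries came from Solanum lycopersicum of the cultivar Moneymaker, a tomato line grown in glasshouses. The plants were 8 weeks old and untreated, and were kept at 24 to 20 °C with 16 h of light and 8 h of darkness a day. One library was made from anthers of several developmental stages and the other from young leaves, with 1 library per tissue and no replicates. The assay was MACE (massive analysis of cDNA ends), which binds the poly(A) tail of messenger RNA and reads a tag from the last 500 bp of the transcript, so that reads do not grow with transcript length.

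The anther is the part of the stamen in which pollen forms. It holds the developing pollen, the tapetum, a nursing cell layer that feeds the pollen and supplies material for its wall, and outer wall layers that later open to release it. Pollen and tapetum are known for transcripts that are scarce or missing in vegetative organs. A young leaf is made mostly of photosynthetic mesophyll, with epidermis and veins. In a whole organ, fewer cells of a type and less RNA per cell cannot be told apart, and the stages pooled in the anther library cannot be separated.

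The files give identifiers of the Solyc type without gene names, and 0 of the 72 identifiers were found in the RefSeq gene table of assembly SLM_r2.1. No such count is given for the other listed genes, so the 0 is no result about the members. For lack of names, the members are described by identifier, level and place, with no function. The tissue labels were not checked against marker genes. In a name such as Solyc12g014240.1, the digits after Solyc give the chromosome, the number after g orders genes along it, and the digit after the point is the version of the gene model. The last digit is called the suffix here and was 1 or 2 for every listed gene.

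The anther library held 12411606 mapped reads and the leaf library 11534512. In the anther library 1 read corresponded to 0.0806 RPM (reads per 1000000 mapped reads), and in the leaf library to 0.0867 RPM. The leaf file lists no gene at 0 and its lowest entry is 0.002 reads, so a missing gene was taken as 0 reads. A count of 0 was taken to allow up to 3 reads, a one-sided limit, which is 0.260 RPM in the leaf library. All intervals below are exact 95% Poisson intervals on rounded counts and cover counting error only, since no molecular identifiers are named and variation between plants was not measured.

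The members were genes of moderate anther level. Their read numbers ran from 100 to 524 with a median of 137, or from 8.06 to 42.2 RPM with a median of 11.0 RPM. The median of all anther genes with at least 100 reads was 303 reads, and 2985 genes lay above the highest member. The most abundant anther gene reached 16143 RPM. The 72 members together held 12612 reads, 1016 RPM, or 0.147% of the anther reads on listed genes.

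Most members lay close to the minimum that chose them. Of the 72, 41 had 100 to 150 reads, 14 had 150 to 200, 8 had 200 to 300, 6 had 300 to 400 and 3 had more than 400. The 10 members with most reads held 29.3% of the members' reads. Against the 3 reads that an empty leaf entry allows, the measured anther level was 31.0-fold higher for the lowest member. It was 42.4-fold higher at the median and 162-fold higher for the highest member. These values are limited by the leaf depth, leave out the counting error of the anther reads and are therefore not strict lower bounds. They give no order among the members beyond that of their anther reads.

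Solyc12g014240.1 on chromosome 12 was the highest member, with 524 anther reads (42.2 RPM, interval 38.7 to 46.0) and 0 leaf reads. Solyc06g008650.2 on chromosome 6 followed with 460 anther reads (37.1 RPM, interval 33.8 to 40.6) and 0 leaf reads. Solyc04g072040.1 on chromosome 4 had 409.5 anther reads (33.0 RPM, interval 29.9 to 36.4) and 0 leaf reads. The intervals of neighbours in this order overlapped, but that of the first began above 36.4 RPM, the upper end of the third.

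Below these 3, the next members formed a close group. Solyc09g007780.1 on chromosome 9 had 369 anther reads, 29.7 RPM with an interval of 26.8 to 32.9. Solyc12g062920.1 on chromosome 12 had 363 anther reads, 29.2 RPM with an interval of 26.3 to 32.4. Solyc11g073210.1 on chromosome 11 had 360.5 anther reads, 29.0 RPM with an interval of 26.1 to 32.2. The leaf reads of all 3 were 0, and their anther levels did not differ beyond counting error.

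The last 4 of the 10 highest members were as close to each other. Solyc06g073760.2 had 304 anther reads, Solyc07g056130.1 had 303.5, Solyc08g066690.2 had 301 and Solyc01g008610.2 had 298, each with 0 leaf reads. Their levels of 24.0 to 24.5 RPM lay within each other's intervals (21.4 to 27.4 RPM over the 4). The 10 highest members lay on 8 different chromosomes, with chromosomes 6 and 12 each holding a pair.

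**Figure D1:**
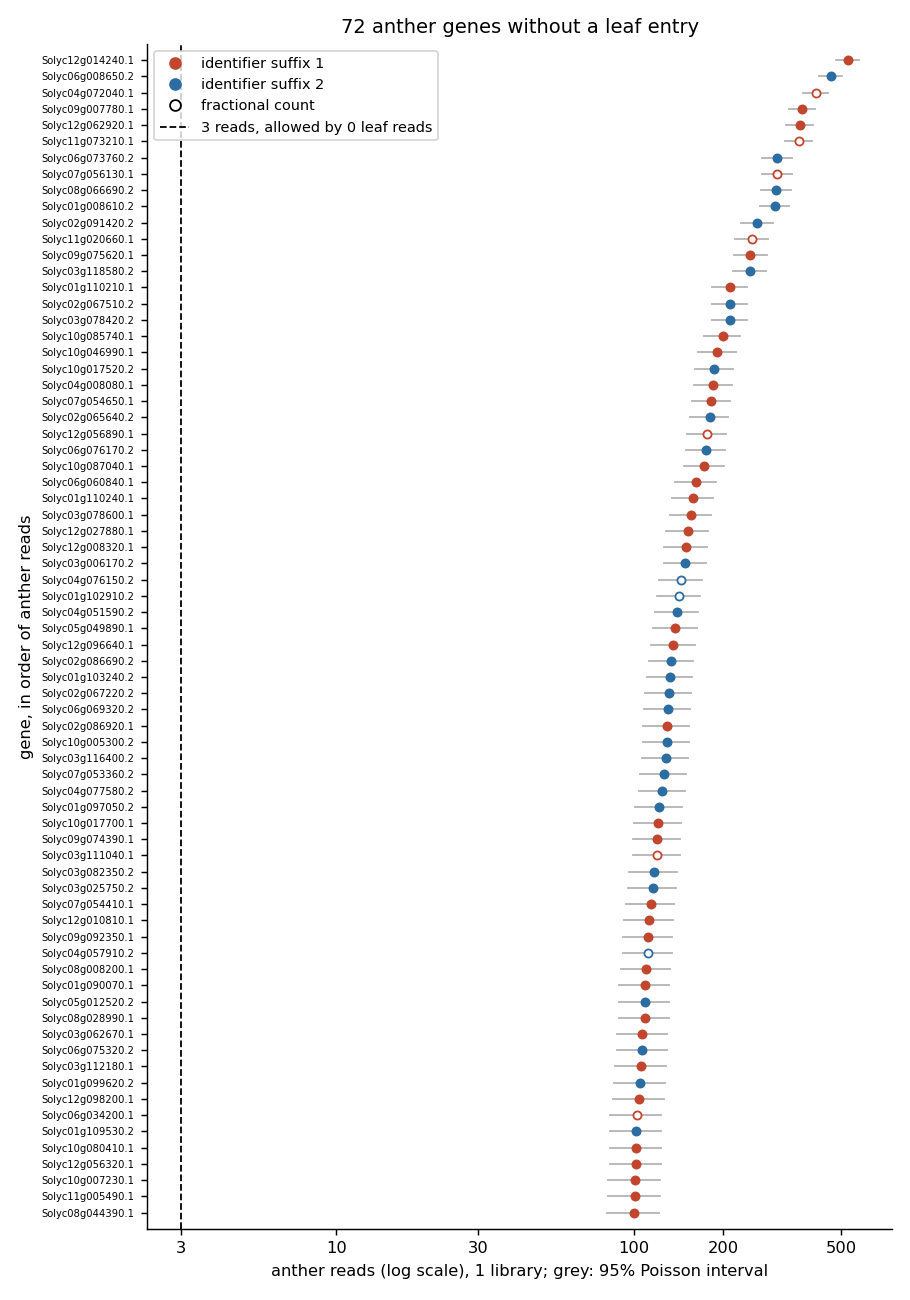
Anther reads (log scale) of the 72 anther genes without a leaf entry, 1 row per gene in order of reads, with 95% Poisson intervals in grey and the 3 reads that 0 leaf reads allow as a dashed line. Points run from 100 to 524 reads, 41 of them below 150, and genes of both identifier suffixes are spread over the whole range.

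The edge of the group was set by the read minimum and not by a break in the data. Just inside it lay Solyc08g044390.1 with 100 anther reads and Solyc10g007230.1 and Solyc11g005490.1 with 101 each. Just outside lay Solyc07g064000.1 with 97 anther reads and Solyc03g121900.1 and Solyc04g078210.1 with 96 each, also with no leaf entry. Without a leaf entry there were 165 genes of at least 50 anther reads, 72 of at least 100, 17 of at least 200, 9 of at least 300 and 1 of at least 500.

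The other edge, the missing leaf entry, was no break either. Among the 9982 genes with at least 100 anther reads, 72 had no leaf entry, 69 had 1 leaf read, 80 had 2 and 45 had 3. A further 3 genes had less than 1 leaf read and 12 had fractional values between 1 and 3. In all, 209 genes of at least 100 anther reads were listed in the leaf with up to 3 reads, the number that a count of 0 allows, and 220 with more than 3 and up to 10. The genes with most anther reads at 1 to 3 leaf reads lay far above every member. Solyc08g079910.1 had 2969 anther reads and 2 leaf reads, Solyc12g013630.1 had 2391 and 3, and Solyc10g076200.1 had 1990.5 and 1.5.

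**Figure D2:**
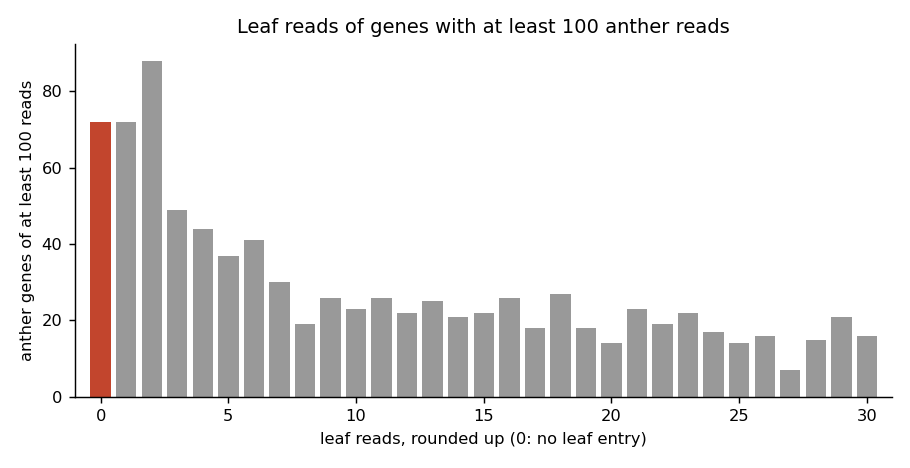
Number of genes with at least 100 anther reads by their leaf reads, rounded up to whole reads, from no entry (72 genes, red) to 30 leaf reads. The red bar is as high as the bar at 1 read and lower than that at 2 reads, so genes without a leaf entry continue the series of genes with few leaf reads.

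The reverse case was rarer. In the leaf library 4 of 9117 genes with at least 100 reads, or 0.0439%, had no anther entry. Solyc03g120020.2 had 364 leaf reads, Solyc08g079770.2 had 181, Solyc09g074570.1 had 174 and Solyc04g058160.1 had 122. With 1 library per tissue the difference between 72 and 4 genes was not tested.

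The members lay on all 12 numbered chromosomes and none on chromosome 0, which holds genes without a place. For comparison, 6925 genes with a leaf entry and 100 to 524 anther reads, the read range of the members, are called the comparison genes here. Chromosome 3 held the most members, 10 of 72 or 13.9%, beside 11.9% of the comparison genes. Chromosomes 1 and 12 held 9 members each, 12.5%, beside 15.0% and 3.55% of the comparison genes. Chromosome 10 held 8 members, 11.1%, beside 4.75%, and chromosome 5 the fewest, 2 members or 2.78%, beside 7.12%.

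Chromosomes 10 to 12 together held 20 members, 27.8%, beside 12.0% of the comparison genes. Per 1000 genes of the read range, there were 35.3 members on chromosome 12, 23.7 on chromosome 10 and 11.7 on chromosome 11. Chromosomes 1 to 9 had between 4.04, on chromosome 5, and 11.9, on chromosome 3. The numbers per chromosome are small, and no test was made.

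**Figure D3:**
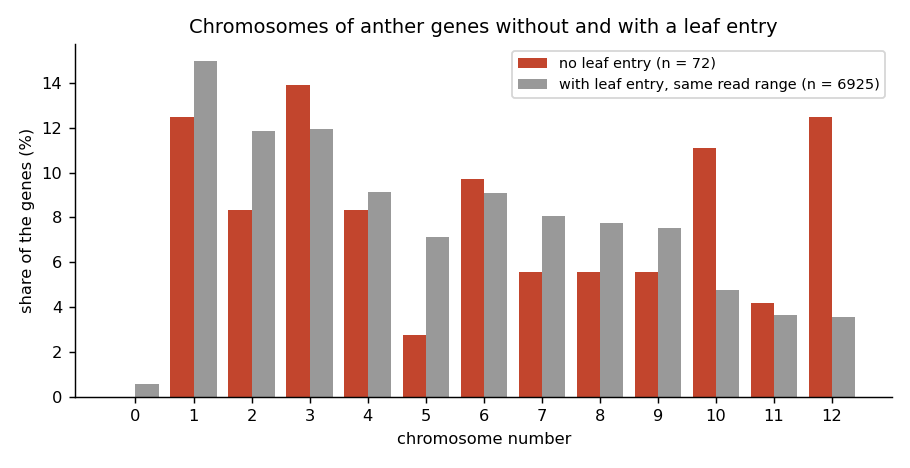
Share of the 72 anther genes without a leaf entry (red) and of the 6925 anther genes of the same read range with a leaf entry (grey) on each chromosome number. The red bars stand highest above the grey ones on chromosomes 12 (12.5% and 3.55%) and 10 (11.1% and 4.75%), and chromosome 0 holds no red bar.

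Both strands carried members in nearly equal number. The strand is written wat or cri in the files, and 38 members (52.8%) lay on wat and 34 on cri, beside 51.7% of the comparison genes on wat. Members on wat had a median of 139 anther reads and those on cri of 133.5. Single chromosomes were less even, with all 4 members of chromosome 8 on cri, both members of chromosome 5 on wat and 5 of 6 members of chromosome 4 on wat. These chromosomes hold few members and were named after their values were seen. Their strands were not set beside those of the comparison genes and were not tested.

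The members were scattered along the chromosomes. When the listed genes of each chromosome were put in identifier order and split into 3 equal parts, 23 members lay in the first part, 20 in the middle and 29 in the last. These are 31.9%, 27.8% and 40.3%, beside 33.2%, 30.9% and 35.9% of the comparison genes. Of the 60 distances between consecutive members on a chromosome, the median was 4915 identifier units, on a scale where the members' numbers are all multiples of 10. Only 1 distance was at most 50, 3 were at most 200 and 5 at most 250. No distances of other genes are set beside these counts, so they cannot be called few or many.

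The single close pair was Solyc01g110210.1 and Solyc01g110240.1 on chromosome 1, both on wat and both of suffix 1. Solyc01g110210.1 had 211 anther reads (17.0 RPM) and Solyc01g110240.1 had 158 (12.7 RPM), and neither had a leaf entry. Between them lay Solyc01g110220.1 with 91 anther and 2 leaf reads and Solyc01g110230.1 with 415 anther and 9 leaf reads, on the same strand. All 4 genes were higher in the anther, with 91 to 415 reads there and 0 to 9 in the leaf. Next on either side were Solyc01g110190.2 with 11.5 anther and 3.5 leaf reads and Solyc01g110260.1 with 1 anther and 2 leaf reads. Farther out, beyond Solyc01g110180.2 with 4 anther and 0 leaf reads, Solyc01g110170.1 on cri had 55.5 anther reads and 1 leaf read.

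The other 4 distances of at most 250 joined members much less closely. Solyc03g078420.2 (211 reads) and Solyc03g078600.1 (156 reads) lay 180 units apart on chromosome 3, both on wat. Solyc10g017520.2 (187 reads) and Solyc10g017700.1 (121 reads) lay 180 apart on chromosome 10 on opposite strands. Solyc02g086690.2 (134 reads) and Solyc02g086920.1 (129 reads) lay 230 apart on chromosome 2, and Solyc07g054410.1 (114 reads) and Solyc07g054650.1 (182 reads) lay 240 apart on chromosome 7, each pair on opposite strands.

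The genes next to the members were high in the anther about as often as genes in general. The nearest gene on each side of a member was taken if it lay within 50 identifier units and reached 1 RPM as the mean of both tissues, which gave 131 genes, none of them a member. A gene was called at least 2-fold higher in the anther when log2((anther RPM + 1) / (leaf RPM + 1)) was at least 1. This held for 30 of the 131 neighbours, or 22.9%, beside 21.5% of all 17137 genes that reached this mean, and the share near the background is no result about the members. The median log2 ratio of the neighbours was 0.08 and that of all genes 0.15. Leaf-higher neighbours numbered 20, or 15.3%, beside 17.5% of all genes. The neighbours of the comparison genes gave 21.2% and 16.5%.

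At least 1 neighbour at least 2-fold higher in the anther was found for 24 of 72 members, or 33.3%, beside 35.2% of the comparison genes. Such neighbours on both sides were found for 6 members, or 8.33%, beside 4.22%, and neither difference was tested. The genes around some of these members are described here as single cases, named after their values were seen. Solyc06g008650.2, with 460 anther reads, was followed by Solyc06g008660.2 with 487.7 anther and 2.5 leaf reads and by Solyc06g008670.2 with 445.7 and 2.5. It was preceded by Solyc06g008640.2 with 35 anther reads and Solyc06g008630.2 with 18, both without a leaf entry. All 5 genes lay on cri, and the 2 that follow the member had fractional counts.

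Other members had a single such partner or a short row of them. Solyc06g073760.2, with 304 anther reads, lay next to Solyc06g073750.2 with 972 anther and 5 leaf reads. Solyc12g062920.1, with 363, lay next to Solyc12g062910.1 with 172 and 1. Solyc01g090070.1, with 109, lay next to Solyc01g090080.1 with 142 and 1 and near Solyc01g090090.1 with 80.2 and 2, all on cri. On its other side the nearest gene that reached a mean of 1 RPM was Solyc01g090030.1 on wat, with 303.25 and 5. Solyc01g090070.1 was thus among the members with such neighbours on both sides.

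Some members bordered on genes with a clear leaf level. Solyc01g097050.2, with 122 anther reads and no leaf entry, had Solyc01g097040.2 on one side, with 126 anther and 131 leaf reads, and Solyc01g097060.2 on the other, with 240 and 2. Solyc11g073210.1, with 360.5 anther reads, lay next to Solyc11g073200.1 on the opposite strand, with 627.5 anther and 42 leaf reads. That neighbour was itself higher in the anther, with 50.6 RPM beside 3.64 RPM in the leaf. Here, as in the stretches described above, at least 1 of the genes next to a member was listed in the leaf. For Solyc06g008660.2, Solyc12g062910.1 and Solyc01g090080.1 this entry was only 1 to 2.5 reads. Such entries lie within the 3 reads that a missing entry allows, so a listed and a missing gene cannot be told apart there.

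**Figure D4:**
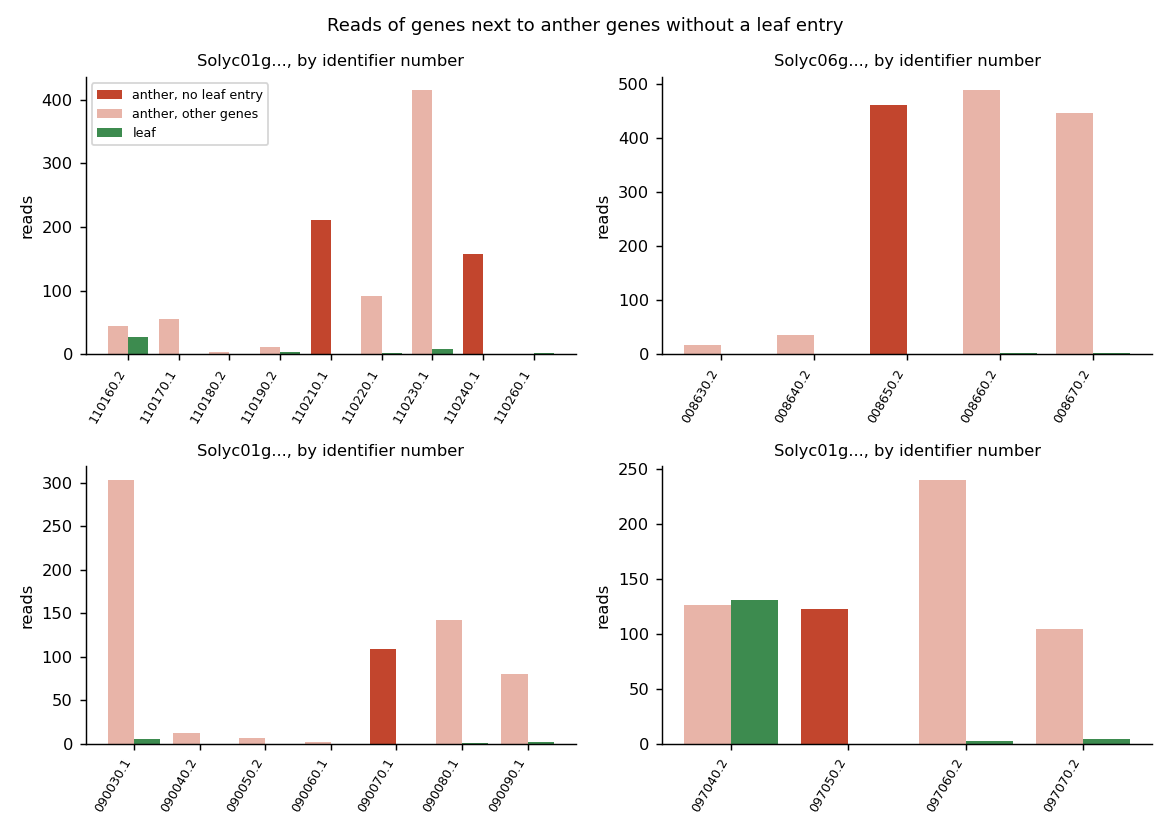
Reads of single genes in the anther (red: no leaf entry and at least 100 anther reads, pale red: other genes) and the leaf (green) along 4 stretches of identifiers. In each panel some neighbours are high in the anther and near 0 in the leaf. In the last, Solyc01g097050.2 with 122 and 0 reads also stands beside Solyc01g097040.2 with 126 and 131.

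Gene models of suffix 1 made up more of the members than of comparison genes. Of the 72 members 41 (56.9%) had suffix 1 and 31 suffix 2, beside 1150 of 6925 comparison genes (16.6%) with suffix 1. The comparison genes had a higher median level, 220 anther reads beside 137 for the members. Under 200 anther reads, suffix 1 was carried by 58.2% of 55 members and 22.1% of 3006 comparison genes. Among the comparison genes the share was larger at lower leaf reads, with 1 small reversal. It was 10.7% of 1878 genes with more than 300 leaf reads, 14.4% of 3275 with 100 to 300, 22.8% of 1125 with 30 to 100 and 20.9% of 296 with 10 to 30. It was then 39.9% of 168 genes with 3 to 10 leaf reads and 50.8% of 183 with up to 3. The members' share lay at the end of this series, and no test of the difference was made.

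The suffix also depended on the chromosome. Among comparison genes, suffix 1 was carried by 7.69% on chromosomes 1 to 9 and by 82.0% on chromosomes 10 to 12, with 57.1% on chromosome 10, 97.6% on chromosome 11 and 99.2% on chromosome 12. Of the members on chromosomes 10 to 12, 18 of 20 (90.0%) had suffix 1. On chromosomes 1 to 9 it was 23 of 52 (44.2%), so the larger share among members was also present where suffix 1 is uncommon. All 4 members of chromosome 9 and 3 of 4 on chromosome 8 had suffix 1, beside 6.53% and 7.99% of the comparison genes there.

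The same counts can be read the other way round. On chromosomes 1 to 9, genes without a leaf entry were 23 of 489 suffix 1 genes (4.70%) and 29 of 5621 suffix 2 genes (0.516%) of the read range. On chromosomes 10 to 12 they were 18 of 698 (2.58%) and 2 of 151 (1.32%). Among suffix 1 genes, chromosomes 10 to 12 therefore did not have the larger share, in contrast to the count over both suffixes. The levels of the members hardly depended on the suffix, with medians of 138 reads for suffix 1 and 134 for suffix 2.

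The height of the highest read peak was set against the reads of each gene. This ratio is named the peak share. Among the members its median was 34.4%, with quartiles of 26.8% and 46.2% and a range from 16.4% to 62.9%. Its median among the comparison genes was 25.9%, with quartiles of 22.8% and 31.2%. In no member was the peak higher than the reads, and 9 of the 6925 comparison genes with such a peak were left out of all their peak share values. A peak share of at least 50% was found in 11 members (15.3%), beside 6.49% of comparison genes, and 10 of these 11 had suffix 1.

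The peak share differed by suffix in both sets of genes. Members of suffix 1 had a median of 43.1%, beside 44.5% of suffix 1 comparison genes, and members of suffix 2 had a median of 27.0%, beside 25.0%. The 55 members under 200 reads gave 43.1% and 27.2%, beside 45.1% and 25.8% of the 3006 genes with a leaf entry at that level. The larger share of suffix 1 genes moved with the members' higher overall peak share, and its part in it was not tested further.

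**Figure D5:**
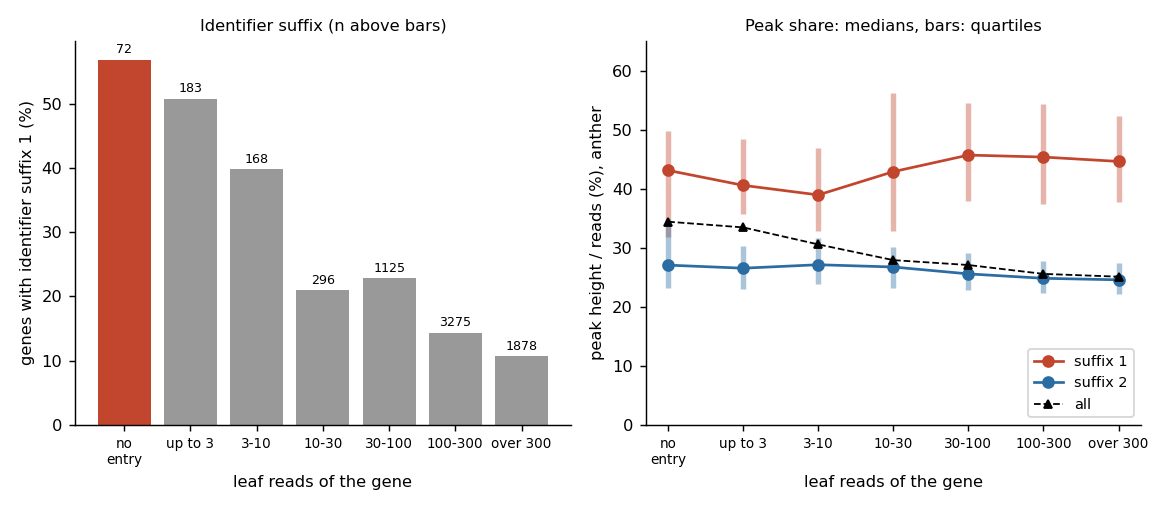
Left, share of genes with identifier suffix 1 among anther genes of 100 to 524 reads by their leaf reads, from no entry (red, n = 72) to over 300, where a class such as 3-10 means above 3 and up to 10. Right, medians and quartiles of the anther peak share in the same classes, whose medians lie between 39.0% and 45.7% for suffix 1 and between 24.6% and 27.1% for suffix 2 while the median of all genes falls from 34.4% to 25.1%.

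The extremes show how widely the peak share differed between single members, though how the peak was computed is not stated. Solyc10g007230.1 had the highest peak share, 62.9%, with a peak of 63.5 for 101 reads. Solyc12g027880.1 followed with a peak of 94 for 152 reads (61.8%) and Solyc10g085740.1 with 119 for 199 (59.8%). At the low end stood Solyc02g086690.2 with a peak of 22 for 134 reads (16.4%), Solyc04g051590.2 with 28 for 140 (20.0%) and Solyc10g005300.2 with 27 for 129 (20.9%). The 3 highest had suffix 1 and the 3 lowest suffix 2. Of the 26 members with a peak share under 30%, 19 had suffix 2.

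Some members had fractional counts, which are taken here as reads shared among several places, though the headers do not state it. Of the 72 members 10 (13.9%) were fractional, beside 17.6% of the comparison genes. This share is near the background and is no result about the members. Of the 10, 9 ended in 0.5 of a read and 1, Solyc04g076150.2 with 144.3 reads, in a fraction of 0.3333. The highest fractional members were Solyc04g072040.1 (409.5 reads), Solyc11g073210.1 (360.5) and Solyc07g056130.1 (303.5). Their level depends on how shared reads were divided. The other 62 members had whole counts from 100 to 524, with a median of 133 reads. Solyc10g007230.1 had whole reads but a fractional peak of 63.5.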

How the data were processed

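Each deposited file gives, per gene, estimated counts of reads (all hits), partly fractional, as the authors deposited them without normalization. The library's mapped reads are a whole-number count that the authors repeat in each line. Per the file headers, a further column holds transcripts per 1000000. Its values matched count / mapped reads x 1000000 within 1.45e-08 (anther) and 3.42e-08 (leaf) and, as deposited by the authors, are therefore RPM. The highest peak was deposited as a signal, and how the authors computed it is not stated. FastQC is named per the submitters' processing notes. For the aligner, the counter, the build and the annotation, names were not given in the sources used here.

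Members were selected with Python 3.11.15 and pandas 2.3.3. A count was called whole within 1e-06. Intervals are Poisson (scipy 1.17.1). The steps were tested on simulated data. With 1 library per tissue no test was run. Members, rules and comparison sets were chosen with earlier results of these data known. Genes are named by rule: the 10 highest members, those at the edges of the rule, close pairs, peak share extremes, highest fractional members and leaf-only genes. Others are said to be chosen after their values were seen, or, in the wider member pairs, are all pairs within 250. Alternatives were other read minima, up to 3 leaf reads, whole counts only, identifiers without suffix, other distances, filters and pseudocounts, and TMM (edgeR 4.0.16, rounded counts).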

Additional observations from a re-analysis of the deposited data

How the results depend on the processing

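Of 50 alternative values, 35 stayed within a set range around the reported one and 15 did not. The range was the exact 95% binomial interval of a share, the order-statistic interval of a median, or a factor of 1.5 for a count. The alternatives mostly reuse the same genes, and some gave the main set itself. Staying within range is therefore no independent support. The 72 members became 165 at a minimum of 50 reads, 17 at 200 and 281 with up to 3 leaf reads allowed, each by construction. They were 62 with whole counts and 72 when the suffix was ignored. Their median of 11.0 RPM became 7.17 at 50 reads, 24.3 at 200, 14.7 with up to 3 leaf reads and 15.9 when scaled to reads on listed genes. The 2 members in a close pair became 16 at 50 reads, 0 at 200, 44 with up to 3 leaf reads and 0 within a distance of 20. The 22.9% of neighbours higher in the anther became 31.3% (of 32) at 200 reads, 10.7% with a pseudocount of 5, 15.6% without a filter and 15.6% with a minimum mean of 10 RPM. It fell below the share of all genes with a pseudocount of 5 (13.2%), at 10 RPM (19.2%) and with whole counts only (20.2% beside 21.9%), so no direction is given for it. The suffix, fraction, strand, chromosome 3 and peak shares stayed within range under each alternative tried. That range was wide for the fraction share, which was 11.5% at 50 reads and 23.5% at 200. No replicate could be left out. No paired analysis was possible because there was a single library for either tissue. Fold values rest on a limit of 0.260 RPM in the leaf and leave out the counting error of the anther reads.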

Other observations

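The 183 comparison genes with up to 3 leaf reads are set beside the members here, with no test of any difference. Suffix 1 was carried by 50.8% of them and 56.9% of the members, and on chromosomes 1 to 9 by 44.9%, beside 44.2% of the members there. Of their 343 neighbours, 111 (32.4%) passed the 2-fold threshold towards the anther, beside 22.9% for the members. The neighbours at least 10-fold higher in the anther by RPM were 20.4% for these genes, 13.7% for the members and 9.17% of all genes that reach a mean of 1 RPM. Unlike the 2-fold call, this ratio used no pseudocount. It also used no floor of 3 leaf reads. Among the genes that reached this mean, those without a leaf entry were therefore all counted. Among neighbours of any level, 15.6% of the 141 next to members and 15.8% of the 361 next to these genes had no leaf entry, beside 11.7% of all listed genes.

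Solyc02g067510.2 and Solyc03g078420.2 had the same anther reads, 211, and the same peak, 47. Of 6997 genes of the read range, 26.1% shared both values with another gene. In the leaf library Solyc09g074570.1, which has no anther entry, had a peak of 220 for 174 reads. It was 1 of 325 leaf genes whose peak was higher than their reads, beside 356 in the anther library.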
